A study of Mus musculus with 12 samples.

Results

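The 7 genes that encode insulin-like growth factor (IGF) binding proteins, Igfbp1 to Igfbp7, were followed through RNA sequencing of mouse livers enlarged by YAP or MYC. They were picked by symbol from the 48576 genes in each deposited count table. All 7 were found, and all 7 passed the filter on low counts that left 17964 genes for testing. Total liver RNA was sequenced in 12 libraries of 5 groups. In the YAP model every mouse carried Col-TRE-YAPS127A; Rosa26-LSL-rtTA, that is, a doxycycline-responsive YAP that escapes inhibitory phosphorylation and an rtTA that needs Cre to be expressed. The study's design gives these mice AAV-TBG-Cre at 8 to 10 weeks of age, so that the hepatocyte promoter TBG confines Cre to hepatocytes, and then doxycycline for 2 weeks (n = 2) or 4 weeks (n = 3). YAP controls had the same genotype without induction (n = 2), and whether they received the virus is not given in the sources used here. In the MYC model LAP-tTA; TRE-MYC mice lost doxycycline at about embryonic day 8, when it was withdrawn from their mothers, and the offspring gave liver RNA at 4 weeks of age (n = 3). MYC controls had the LAP-tTA driver alone and the same doxycycline schedule (n = 2). No age at collection was recorded here for the MYC controls. The MYC livers are thus from young mice exposed since before birth, and the YAP livers from adults exposed for weeks.

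Each library held between 12511170 and 17690798 counts, and replicates differed by more than counting error. The labels name hepatocytes as the cell type but describe RNA of the total liver, and 8 hepatocyte markers summed to between 30900 and 108700 CPM (counts scaled to library size) in every library, beside lower sums for other liver cell types. In such bulk samples fewer cells of a type and less RNA per cell cannot be told apart. The genes named for the transgenes did not mark the induced libraries: Yap1 stood at 83.8 CPM in YAP controls and 83.8 CPM after 2 weeks, and Myc at 11.1 CPM in MYC controls and 25.6 CPM in MYC livers (edgeR adjusted p = 0.242), so neither gene checked the labels. Several libraries stood apart from the labels' groups. Xist and Y-linked genes gave a female pattern in 2-week replicate 2 and in all 3 of the 4-week livers, and a male pattern in the other 8, so 4 weeks of YAP and sex cannot be told apart. The sum of 14 skeletal muscle markers was 492 and 546 CPM in the 2-week livers, against 0.796 to 20.9 CPM in the other 10 libraries. Among the 4-week livers, replicate 1 stood apart, with a cholangiocyte marker sum of 505 CPM where the highest of the 3 reached 3322 CPM. Scaling mattered as well: with total counts in place of the trimmed mean of M values (TMM), the median log2 fold change over all tested genes moved from 0.10 to 0.64 at 2 weeks, from 0.18 to 0.91 at 4 weeks and from 0.02 to 0.43 for MYC.

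IGF-binding proteins are secreted and hold IGF-I and IGF-II in the circulation and in tissues, where they lengthen the life of the ligand and set how much of it reaches the IGF receptor. The liver is a main source of circulating IGF-I and of several of its carriers. IGFBP-1 is the carrier that insulin acutely suppresses and fasting raises, IGFBP-2 is abundant in fetal plasma, IGFBP-3 forms the large circulating complex with the acid-labile subunit, and IGFBP-7 binds IGFs only weakly and is known from the vessel wall.

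The genes lie in pairs and singly on the mouse genome (GRCm38, GENCODE vM21). Igfbp1 (ENSMUSG00000020429.7, chr11:7197782-7202546, plus strand) and Igfbp3 (ENSMUSG00000020427.11, chr11:7206086-7213923, minus strand) are neighbours, tail to tail and 3539 bp apart with no gene between them. Igfbp2 (ENSMUSG00000039323.18, chr1:72824503-72852474, plus strand) and Igfbp5 (ENSMUSG00000026185.8, chr1:72857932-72874884, minus strand) face each other in the same way at 5457 bp. Igfbp4 (ENSMUSG00000017493.12) lies at chr11:99041244-99054392, Igfbp6 (ENSMUSG00000023046.6) at chr15:102144362-102149511, both on the plus strand, and Igfbp7 (ENSMUSG00000036256.13) at chr5:77349240-77408041 on the minus strand. Igfbp7 alone overlaps other genes: 85 of its 1209 exonic bases are shared with Polr2b and the gene model Gm34648 on the plus strand.

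RefSeq promoters (GRCm38.p6) matched all 7 genes, with 8 promoters because Igfbp2 has 2. The 250 bases before the start site are shown for 4 genes: Igfbp1 and Igfbp7, the genes that rose at both YAP times, Igfbp2, the gene with the largest fall at both times, and Igfbp5, the gene whose promoter holds the letters of a TEAD site. Capitals mark matches to the searched motifs.
Igfbp1, chr11:7197537-7197786, plus strand: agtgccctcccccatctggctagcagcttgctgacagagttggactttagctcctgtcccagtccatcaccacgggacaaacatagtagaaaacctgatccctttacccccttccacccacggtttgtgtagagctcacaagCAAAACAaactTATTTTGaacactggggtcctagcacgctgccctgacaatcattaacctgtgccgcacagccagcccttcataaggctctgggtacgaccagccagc
Igfbp2, chr1:72824230-72824479, plus strand: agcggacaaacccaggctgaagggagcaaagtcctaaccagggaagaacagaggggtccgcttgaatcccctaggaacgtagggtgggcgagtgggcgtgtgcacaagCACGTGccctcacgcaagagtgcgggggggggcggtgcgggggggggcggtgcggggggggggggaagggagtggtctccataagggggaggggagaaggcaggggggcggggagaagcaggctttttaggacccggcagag
Igfbp5, chr1:72874866-72875115, minus strand: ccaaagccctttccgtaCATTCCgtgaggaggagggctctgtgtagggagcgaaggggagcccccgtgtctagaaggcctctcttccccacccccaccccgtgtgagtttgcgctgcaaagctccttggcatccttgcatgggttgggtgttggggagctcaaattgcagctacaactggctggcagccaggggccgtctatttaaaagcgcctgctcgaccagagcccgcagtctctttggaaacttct
Igfbp7, chr5:77408046-77408295, minus strand: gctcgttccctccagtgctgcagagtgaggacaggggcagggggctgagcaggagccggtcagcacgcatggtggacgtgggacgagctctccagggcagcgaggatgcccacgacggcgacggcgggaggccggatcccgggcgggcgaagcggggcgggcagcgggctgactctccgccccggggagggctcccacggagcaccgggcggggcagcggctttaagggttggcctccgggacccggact
The motifs were searched on both strands of the whole 300-base windows, which run to 50 bases after the start. CATTCC, the core recognised by the TEAD partners of YAP, occurred in 1 of the 8 promoters, that of Igfbp5 at 233 bases before the start, and in 14.7% of 32851 promoters overall. CACGTG, the E-box bound by MYC with MAX, occurred in the first Igfbp2 promoter, 142 bases before the start, and in 7.15% of all promoters. The FOXO letters GTAAACA (3.65% of all promoters) and the STAT letters TTCNNNGAA (8.3%) were in none of the 8. In Igfbp1 the capitals mark CAAAACA and TATTTTG, the parts of its known insulin response sequence, 108 and 97 bases before the start. They occur in 6.28% and 4.36% of all promoters, and these 2 were searched after the sequence had been seen.

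Each induced group was set against its own controls with edgeR's quasi-likelihood test over all 17964 genes, and a gene was called at a Benjamini-Hochberg adjusted p under 0.05. After 2 weeks of YAP 4 of the 7 genes changed: Igfbp1 and Igfbp7 rose, Igfbp2 and Igfbp4 fell. Over all tested genes 27.8% were called in this comparison (15.1% higher and 12.7% lower). After 4 weeks 5 of 7 changed, with Igfbp6 joining the rises, where 33.8% of all genes were called (18.1% higher and 15.7% lower). In MYC livers 2 of 7 changed, Igfbp4 and Igfbp7, both lower, where 18.3% of all genes were called (9.76% higher and 8.56% lower). The median log2 fold change over the 7 genes was 0.09 at 2 weeks, 0.52 at 4 weeks and -0.84 in MYC livers, beside medians of 0.10, 0.18 and 0.02 over all tested genes. The libraries of the compared groups did not overlap for 6 of 7 genes at 2 weeks (66.6% of all genes), for 6 of 7 at 4 weeks (59.9%) and for 4 of 7 in the MYC model (53%). The 2 YAP comparisons share their 2 control livers.

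**Figure D1:**
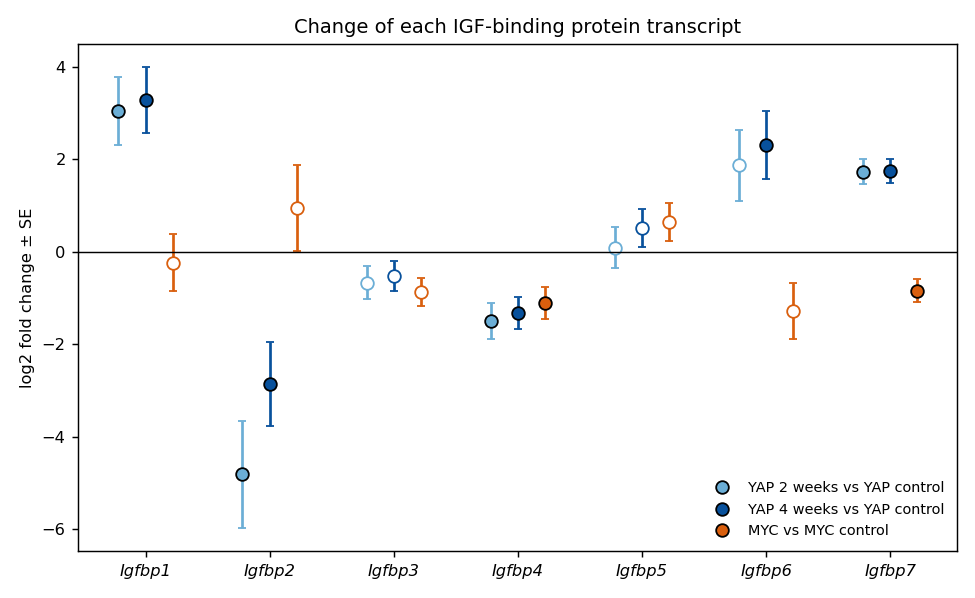
The log2 fold change of each gene with its standard error (vertical axis), from edgeR, for 2 weeks of YAP (light blue), 4 weeks of YAP (dark blue) and MYC (orange), each against its own controls. Filled points passed the threshold: both YAP points of Igfbp1 lie near 3 and those of Igfbp7 at 1.74, while the MYC points of these genes lie at -0.24 and -0.84.

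Igfbp1, whose product restrains IGFs from hour to hour, was the gene of the family that rose most after YAP. It stood at 25.1 and 37.7 CPM in the YAP controls, at 179 and 338 CPM after 2 weeks, and at 551, 91.7 and 272 CPM after 4 weeks. All 5 induced livers were above both controls. The log2 fold change was 3.04 ± 0.74 (SE) at 2 weeks (adjusted p = 0.0142) and 3.28 ± 0.72 at 4 weeks (adjusted p = 0.00756). MYC livers held 125, 139 and 65.5 CPM and their controls 133 and 126 CPM, so the groups overlapped and the gene was not called (log2 fold change -0.24 ± 0.62, adjusted p = 0.834). The controls of the 2 models thus differed in level, with the MYC controls above the YAP controls. The call was lost at 2 weeks without YAP control replicate 1 (adjusted p = 0.0979), YAP control replicate 2 (0.0631) or 2-week replicate 2 (0.0785), and at 4 weeks without YAP control replicate 1 (0.0677). With a term for the sex pattern it was lost at both times (adjusted p = 0.0695 and 0.327). Only the 2-week group held both patterns, so this term rested on the 2-week livers. The male 2-week liver held 179 CPM against 25.1 and 37.7 CPM in the male controls, and no 4-week liver had a male pattern.

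Igfbp2, the carrier prominent in fetal and young animals, moved the other way and had the largest change of the family at 2 weeks. At 4 weeks that of Igfbp1 was larger. YAP controls held 582 and 342 CPM, 2-week livers 13.5 and 19.3 CPM, and 4-week livers 6.48, 92.3 and 92.2 CPM. Every induced liver lay below both controls, and the spread was widest at 4 weeks, where replicate 1 was the lowest of all 12 libraries. The log2 fold change was -4.82 ± 1.16 at 2 weeks (adjusted p = 0.0148) and -2.86 ± 0.91 at 4 weeks (adjusted p = 0.0380). In the MYC model the gene was not called (0.95 ± 0.93, adjusted p = 0.527): MYC livers held 371, 164 and 88.3 CPM, a range that included the 102 and 113 CPM of their controls. The 2-week call was lost without YAP control replicate 1 (adjusted p = 0.0556), 2-week replicate 1 (0.0961) or 2-week replicate 2 (0.0932), and the 4-week call without either control (0.157 and 0.0780), without 4-week replicate 2 (0.0648) or 3 (0.0688), and under total-count scaling (0.0983). The sex pattern term ended both calls (0.0769 and 0.366). The male 2-week liver held 13.5 CPM.

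Igfbp4, a carrier that inhibits IGF action until the protease PAPP-A cleaves it, was the family member that fell in all 3 comparisons. It held 1715 and 1783 CPM in the YAP controls, 716 and 526 CPM after 2 weeks, and 427, 935 and 731 CPM after 4 weeks. MYC livers held 1056, 613 and 560 CPM and their controls 1551 and 1659 CPM. Neither model's groups overlapped. The log2 fold changes were -1.49 ± 0.39 (adjusted p = 0.0158), -1.33 ± 0.34 (adjusted p = 0.0131) and -1.11 ± 0.34 (adjusted p = 0.0447) for 2 weeks, 4 weeks and MYC. Summed hepatocyte markers were lower alongside in 2 of these comparisons, from 77000 to 89470 CPM in YAP controls to 34970 to 73800 CPM at 4 weeks, and from 106800 to 108700 CPM in MYC controls to 30900 to 53750 CPM in MYC livers. At 2 weeks the sum was 70940 to 89890 CPM, a range that overlapped the controls, but it is made up mostly of Alb, at 48880 and 60520 CPM against 45610 and 35130 CPM in the controls (not called, adjusted p = 0.568). The 8 markers had a median log2 fold change of -0.79 at 2 weeks, with 0 higher and 2 lower, Ttr (-2.43, adjusted p = 0.000633) and Serpina1a (-0.85, adjusted p = 0.0208). At 4 weeks 0 were higher and 5 lower, and in MYC livers 0 and 4. Over all genes 12.7%, 15.7% and 8.56% were called lower in the 3 comparisons. The part of hepatocyte markers in the fall of Igfbp4 was not tested.

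For Igfbp4 the calls were close to the threshold. Leaving out either YAP control ended both YAP calls (adjusted p = 0.0596 and 0.0653 at 2 weeks, 0.0585 and 0.0668 at 4 weeks), as did leaving out 2-week replicate 2 at 2 weeks (0.115). In the MYC comparison the call was lost without MYC replicate 2 (0.144), MYC replicate 3 (0.133) or either MYC control (0.162 and 0.183). Total-count scaling kept the direction in all 3 comparisons but ended the calls at 4 weeks (log2 fold change -0.57, adjusted p = 0.148) and for MYC (-0.74, adjusted p = 0.108). The sex pattern term ended all 3 calls (adjusted p = 0.113, 0.514 and 0.0523). All MYC livers and their controls had a male pattern, so the term could not adjust the MYC comparison. Its log2 fold change stayed at -1.11 with the term. The male 2-week liver held 716 CPM against 1715 and 1783 CPM in the male controls.

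**Figure D2:**
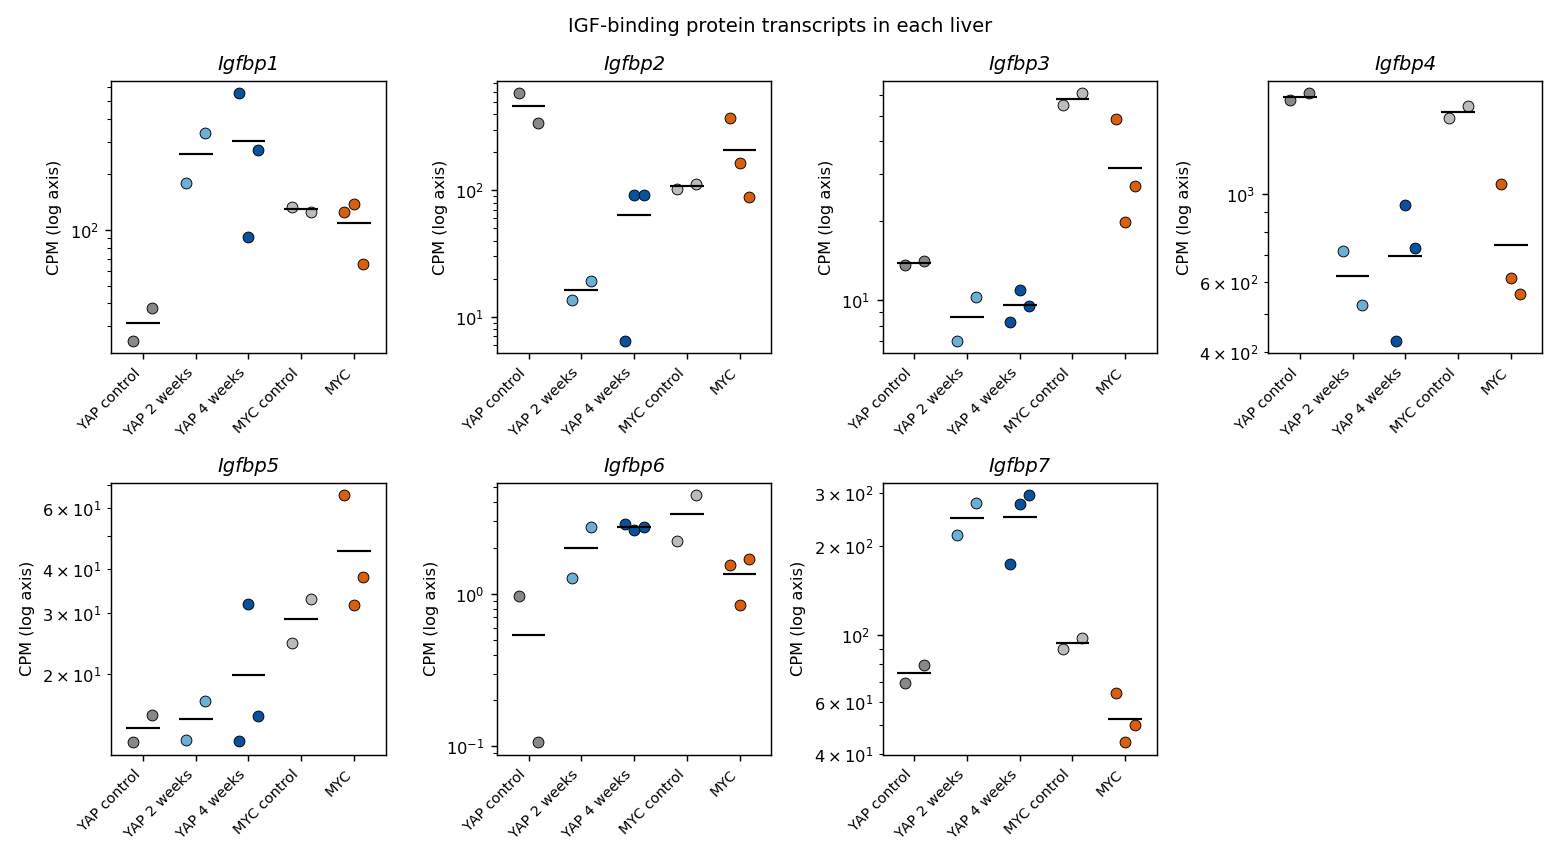
Level of each gene in each liver, in TMM-scaled CPM on a log axis, with 1 point per library and a bar at the group mean, for the 5 groups in the order YAP control, 2 weeks, 4 weeks, MYC control and MYC. Igfbp1 and Igfbp7 are higher in all 5 induced YAP livers than in their controls, Igfbp2 and Igfbp4 are lower, and Igfbp4 is lower in all 3 MYC livers than in theirs.

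Igfbp3, the partner of IGF-I in the large plasma complex, is made in liver mainly by cells other than hepatocytes. The level was 13.6 and 14 CPM in YAP controls, 7.01 and 10.3 CPM at 2 weeks, and 8.26, 10.9 and 9.45 CPM at 4 weeks. All induced livers lay below both controls, yet the differences did not pass the test (log2 fold change -0.67 ± 0.36, adjusted p = 0.186, and -0.53 ± 0.32, adjusted p = 0.225), and under total-count scaling the 4-week value turned to 0.21. MYC controls held more of it than any other group, at 55.1 and 60.7 CPM. The 3 MYC livers held 48.4, 19.7 and 27.0 CPM, below both controls, and the difference did not pass (-0.87 ± 0.31, adjusted p = 0.0732). Without MYC replicate 1, the highest of them, it passed (-1.31, adjusted p = 0.00311). Although Igfbp1 lies next to it on chromosome 11, the 2 genes differed in level pattern over the 12 libraries by a root mean square of 1.79 on the log2 scale.

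Igfbp5, which binds to extracellular matrix and is typical of mesenchymal cells, was not called in any comparison. It held 12.7 and 15.2 CPM in YAP controls, 12.9 and 16.7 CPM at 2 weeks, 12.8, 31.8 and 15.1 CPM at 4 weeks, 65.5, 31.5 and 38.1 CPM in MYC livers, and 24.5 and 32.9 CPM in MYC controls. The groups overlapped in each comparison. Its log2 fold changes were 0.09 ± 0.45 (adjusted p = 0.906), 0.52 ± 0.42 (adjusted p = 0.364) and 0.65 ± 0.41 (adjusted p = 0.300). Without 4-week replicate 2 the 4-week value was 0.002, and without MYC replicate 1 the MYC value was 0.28. The 2-week value lay between -0.11 and 0.28 as single libraries were left out. Under total-count scaling the 4-week value became 1.26 and passed (adjusted p = 0.0274), beside a median of 0.91 over all genes there. The skeletal muscle markers that reached 492 and 546 CPM in the 2-week livers had 10 and 12 of 14 genes at 0 in the YAP controls, where Igfbp5 held 12.7 and 15.2 CPM. Their part in the Igfbp5 values was not tested.

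Igfbp6, a carrier with a preference for IGF-II, was the scarcest of the family, and its values rest on few counts. The YAP controls had 10 counts and 1 count, the 2-week livers 18 and 46, and the 4-week livers 45, 46 and 49. In CPM these are 0.966 and 0.106, then 1.28 and 2.75, then 2.86, 2.64 and 2.73. All 5 induced livers were above both controls. The rise passed at 4 weeks (log2 fold change 2.31 ± 0.73, adjusted p = 0.0309) and not at 2 weeks (1.87 ± 0.77, adjusted p = 0.0911). It was lost at 4 weeks without YAP control replicate 2, the library with 1 count (1.497, adjusted p = 0.169), without 4-week replicate 2 (0.0517) or without 4-week replicate 3 (0.0609), and with the sex pattern term (0.637). Conversely, the 2-week value passed without YAP control replicate 1 (4.15, adjusted p = 0.0286) and under total-count scaling (2.44, adjusted p = 0.0352). MYC livers held 1.55, 0.841 and 1.68 CPM against 2.21 and 4.44 CPM in their controls, which did not overlap and was not called (-1.29 ± 0.61, adjusted p = 0.167).

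Igfbp7, the IGFBP-related protein of vessels and stroma, gave the firmest changes of the family. YAP controls held 69.4 and 79.7 CPM, 2-week livers 217 and 279 CPM, and 4-week livers 174, 277 and 296 CPM. All 5 induced livers lay above both controls. The log2 fold change was 1.74 ± 0.27 at 2 weeks (adjusted p = 0.00114) and 1.74 ± 0.26 at 4 weeks (adjusted p = 0.000665). In the MYC model the gene fell: MYC livers held 64.0, 43.8 and 49.9 CPM and their controls 90.2 and 97.9 CPM (-0.84 ± 0.24, adjusted p = 0.0327). Its calls at 2 and 4 weeks held when any single library was left out (4 of 4 and 5 of 5 refits). With the sex pattern term the 2-week call held (1.54, adjusted p = 0.0116) and the 4-week call did not (1.38, adjusted p = 0.148). The fall in MYC livers was less stable, and was lost without MYC replicate 2 (0.115), MYC replicate 3 (0.0880), either MYC control (0.131 and 0.170) or under total-count scaling (-0.45, adjusted p = 0.258).

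Markers of other liver cell types were set beside Igfbp7. Their counts stand beside the 27.8%, 33.8% and 18.3% of all genes called at 2 weeks, at 4 weeks and with MYC. The largest shifts with YAP were in cholangiocyte and Kupffer cell markers. The 10 cholangiocyte markers summed to 151 and 159 CPM in YAP controls and to 644 and 1303 CPM at 2 weeks. At 4 weeks they summed to 505, 3214 and 3322 CPM. Of the 10, 3 were higher, 0 lower and 7 not called at 2 weeks, and 5, 0 and 5 at 4 weeks. Spp1 made up most of the sum in the induced livers, at 466 and 996 CPM, then 305, 2737 and 2724 CPM. Krt19 held 2.69 and 7.35 CPM at 2 weeks against 5.80 and 9.44 CPM in the controls. The 12 Kupffer cell markers summed to 396 to 400 CPM in YAP controls, 1930 to 2589 CPM at 2 weeks and 475 to 1536 CPM at 4 weeks, with 7 and 4 higher and 0 lower. In the MYC model the cholangiocyte sums were 42.6 and 46 CPM in controls and 40.1 to 58.8 CPM in MYC livers, and the Kupffer cell sums 351 to 368 CPM and 700 to 1015 CPM. The 16 sinusoidal endothelial markers summed to 754 to 862 CPM in YAP controls, 860 to 1080 CPM at 2 weeks and 391 to 873 CPM at 4 weeks, with 2 genes higher and 0 lower at 2 weeks and 0 higher and 2 lower at 4 weeks. They summed to 1061 to 1100 CPM in MYC controls and 495 to 801 CPM in MYC livers, with 0 higher and 4 lower. The 12 stellate cell markers summed to 694 to 768 CPM in YAP controls, 487 to 570 CPM at 2 weeks and 251 to 721 CPM at 4 weeks. Myofibroblast and portal fibroblast markers rose in part, from 97.6 to 146 CPM to 210 to 447 CPM and 148 to 802 CPM, with 2 of 12 higher and 1 lower at 2 weeks and 4 of 12 higher at 4 weeks. Within the 4-week group, replicate 1 had the lowest Igfbp7 (174 CPM). Its sums were the group's lowest for cholangiocyte (505 CPM), stellate cell (251 CPM), myofibroblast and portal fibroblast (148 CPM) and mesothelial (3.68 CPM) markers. They were the highest for Kupffer cell (1536 CPM), sinusoidal endothelial (873 CPM) and hepatocyte (73800 CPM) markers. The part of these cell types in the Igfbp7 values was not tested. Polr2b, which overlaps Igfbp7 on the other strand, fell at both YAP times (log2 fold change -0.74, adjusted p = 0.00445, and -0.72, adjusted p = 0.00243). Whether counting used strand is not given in the sources used here, so reads in the shared bases cannot be assigned.

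Set per kilobase of exon, which allows levels to be compared between genes, the family changed its leading members. In YAP controls Igfbp4 led at 396 ± 10.99 CPM per kb (SD, n = 2), or 53.8% of the family's sum, and Igfbp2 followed at 250 ± 92.2 (34.0%), Igfbp7 at 61.6 ± 6.02 (8.38%) and Igfbp1 at 20.6 ± 5.82 (2.80%). After 2 weeks Igfbp7 (205 ± 36.2 CPM per kb, 38.7%), Igfbp1 (169 ± 73.6, 31.9%) and Igfbp4 (141 ± 30.3, 26.5%) led, and neighbours in this order overlapped between livers. At 4 weeks the group means gave Igfbp7 33.9%, Igfbp1 32.9% and Igfbp4 26.0%, but that order held in replicate 3 alone (37.8%, 27.6% and 25.6%). Replicate 1 had Igfbp1 first at 58.9%, then Igfbp7 at 23.5% and Igfbp4 at 15.8%, and replicate 2 had Igfbp7 at 40.8%, Igfbp4 at 37.6% and Igfbp1 at 10.7%. Igfbp2 went from 34.0% in the controls to 1.67% at 2 weeks and 5.68% at 4 weeks. Igfbp3, Igfbp5 and Igfbp6 together stayed minor in the YAP model, none above 0.600% in a group mean. The family's sum was 736 ± 69.5 CPM per kb in YAP controls (n = 2), 531 ± 83.8 at 2 weeks (n = 2) and 607 ± 42.6 at 4 weeks (n = 3).

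**Figure D3:**
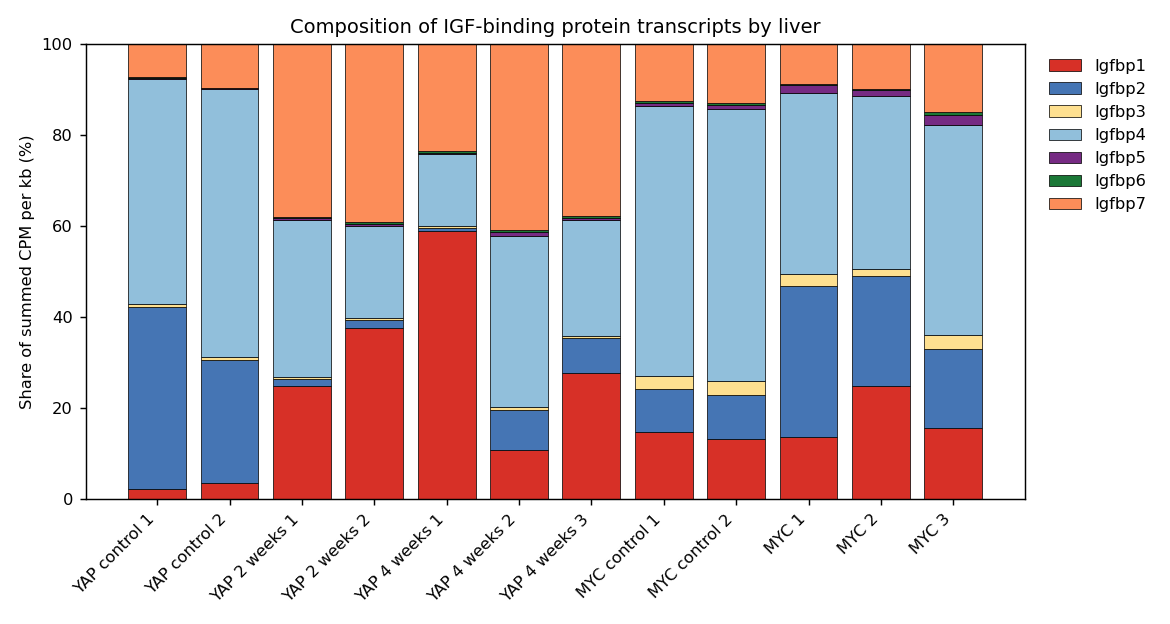
Share of each gene in the family's summed CPM per kb of exon, in percent, with 1 stacked bar per liver. Igfbp2 and Igfbp4 fill most of both YAP control bars, Igfbp1 and Igfbp7 expand in the 5 induced YAP livers, and 4-week replicate 1 has the largest Igfbp1 share at 58.9%.

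In the MYC model the order moved less. MYC controls had Igfbp4 at 59.5%, Igfbp1 at 13.9%, Igfbp7 at 12.7% and Igfbp2 at 9.53% of the sum, and MYC livers had Igfbp4 at 40.6%, Igfbp2 at 27.1%, Igfbp1 at 17.4% and Igfbp7 at 10.5%. The leading 4 genes of MYC livers overlapped with their neighbours in the order. With the length of the longest transcript in place of all exons, Igfbp2 stood above Igfbp7 in MYC controls. The sum was 611 ± 26.0 CPM per kb in MYC controls (n = 2) and 415 ± 169 in MYC livers (n = 3), where replicate 1 alone reached 602.5 CPM per kb and the lowest liver 275 CPM per kb.

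The 4-week livers differed among themselves in a way that crossed the family. Replicate 1 had the highest Igfbp1 (551 CPM) and the lowest Igfbp2, Igfbp4 and Igfbp7 (6.48, 427 and 174 CPM), and Igfbp1 alone made up 58.9% of its family sum. Replicate 2 had the lowest Igfbp1 (91.7 CPM, 10.7% of the sum) and the highest Igfbp4 (935 CPM). Despite this, 4 weeks against 2 weeks of YAP gave no call among the 7 genes with edgeR (0 also at an unadjusted p under 0.05, and 0 with DESeq2), where 0.0612% of all genes were called. The widest difference was that of Igfbp2 (log2 fold change 1.96 ± 0.98, adjusted p = 0.745). Igfbp7 differed by 0.01 ± 0.24 (adjusted p = 1.00).

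Whether MYC and 4 weeks of YAP moved a gene by unequal amounts was tested as a contrast of its own (MYC effect minus YAP effect), and 3 of the 7 genes passed, all with the lower effect in MYC, where 7.48% of all genes were called (3.15% higher and 4.33% lower). Igfbp7 differed by -2.58 ± 0.35 on the log2 scale (adjusted p = 0.00227), having risen with YAP and fallen with MYC, and this call held in all 10 refits that left out 1 library. Igfbp6 differed by -3.59 ± 0.95 (adjusted p = 0.0430) and Igfbp1 by -3.52 ± 0.91 (adjusted p = 0.0471), the latter not passing without the filter (0.132) or with only the groups compared (0.0545). The Igfbp6 call held in 3 of 10 refits, those without YAP control replicate 1, 4-week replicate 1 or MYC replicate 1, with adjusted p up to 0.192 in the rest. The Igfbp1 call held in 1, that without 4-week replicate 2, with adjusted p up to 0.164 in the rest. Neither Igfbp1 nor Igfbp6 was called in the MYC comparison itself. Igfbp2 had the largest opposite value, 3.81 ± 1.32, which did not pass (adjusted p = 0.118) but did without 4-week replicate 1 (3.27, adjusted p = 0.0380). For Igfbp4, lower in both models, the effects differed by 0.22 ± 0.49 (adjusted p = 0.842), a value that turned to -0.17 under total-count scaling. With the sex pattern term none of the 7 passed. Model, age, length of exposure and, within the YAP effect, sex pattern differ together between these groups and cannot be told apart.

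Of 5 tested IGF and insulin ligands and receptors, Igf2 and Igf1r were higher in all 3 comparisons and Igf1 was lower in MYC livers. The rest, Igf2r and Insr throughout and Igf1 with YAP, did not pass, and these counts (2, 2 and 3 of 5) stand beside the 27.8%, 33.8% and 18.3% of all genes called. Igf2, the fetal ligand, stood at 1.55 and 2.02 CPM in YAP controls, 11.5 and 35.2 CPM at 2 weeks, and 23.8, 172 and 285 CPM at 4 weeks, and reached 8592, 13440 and 17030 CPM in MYC livers against 8.31 and 7.33 CPM in their controls. Its log2 fold changes were 3.71 ± 1.02 (adjusted p = 0.0234), 6.49 ± 1.11 (0.00207) and 10.70 ± 1.29 (0.000977). Igf1, the adult ligand, was not called with YAP (-0.45, adjusted p = 0.324, and -0.78, adjusted p = 0.0579) and fell in MYC livers, from 1613 and 1867 CPM to 497, 373 and 261 CPM (-2.21 ± 0.29, adjusted p = 0.00106). Igf1r, the receptor that carries the IGF signal, rose by 0.80, 0.92 and 0.75 in the 3 comparisons (adjusted p = 0.0244, 0.00774 and 0.0317).

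Growth hormone drives hepatic IGF-I and the acid-labile subunit. The list of that input and of the circulating complex had 0 higher and 3 lower of 8 tested genes at 2 weeks. The counts were 2 and 3 at 4 weeks, and 0 and 3 in MYC livers. Over all tested genes 27.8%, 33.8% and 18.3% were called in these comparisons. Ghr, the growth hormone receptor, fell in all 3 comparisons, from 848 and 822 CPM in YAP controls to 76.6 to 182.5 CPM in the 5 induced livers (log2 fold change -3.17 and -2.76, adjusted p = 0.000221 and 0.000151) and from 800 and 763 CPM to 265, 181 and 229 CPM in MYC livers (-1.80, adjusted p = 0.00316). Igfals, which encodes the acid-labile subunit that binds IGFBP-3, fell too (-1.93, -1.75 and -1.65, with adjusted p = 0.0180, 0.0128 and 0.0275). Socs2, an inhibitor induced by growth hormone, rose at 4 weeks (1.41, adjusted p = 0.0409) and fell in MYC livers (-2.39, adjusted p = 0.00646), and its effects differed by -3.80 (adjusted p = 0.00895).

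**Figure D4:**
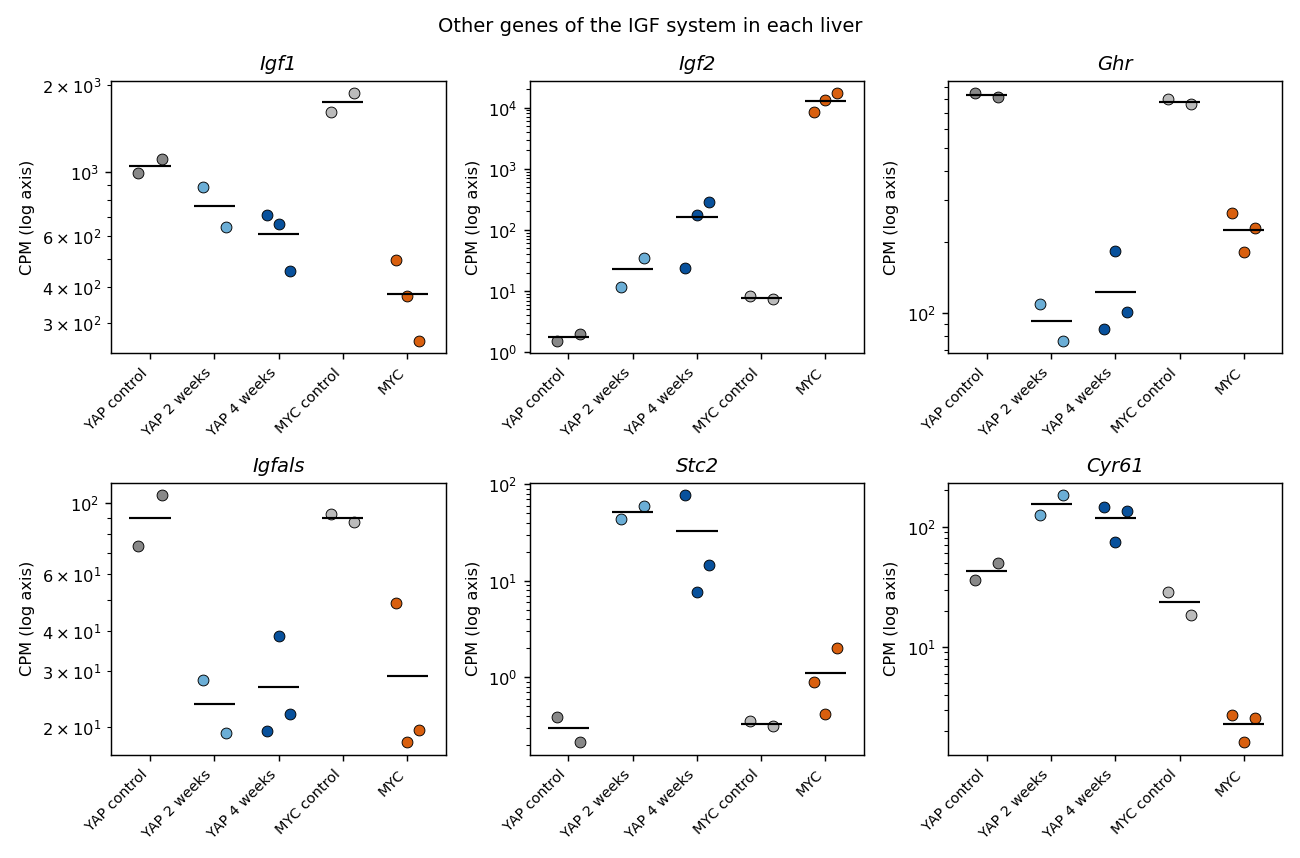
Levels of 6 other genes of the IGF system in each liver, in TMM-scaled CPM on log axes, with 1 point per library and a bar at the group mean. Ghr and Igfals are lower in every induced liver than in its controls, Stc2 is higher in all 5 induced YAP livers, and Igf2 reaches 8592 CPM or more in the 3 MYC livers, against at most 285 CPM elsewhere.

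Proteases release IGFs by cutting their carriers, and stanniocalcins block the protease PAPP-A. Of 7 tested genes on that list, 2 were higher and 0 lower at 2 weeks, 3 and 0 at 4 weeks, and 0 and 0 in MYC livers. The shares of all genes called were 27.8%, 33.8% and 18.3%, so the 2-week count of this list was close to the background. Stc2, encoding stanniocalcin-2, went from 0.386 and 0.212 CPM in YAP controls to 44.3 and 59.1 CPM at 2 weeks and 77.4, 7.74 and 14.6 CPM at 4 weeks (log2 fold change 7.38 ± 1.40, adjusted p = 0.00492, and 6.74 ± 1.36, adjusted p = 0.00549). Its MYC value did not pass (1.75, adjusted p = 0.444). The metalloproteases Adam12 (1.47 and 1.24, adjusted p = 0.0307 and 0.0405) and, at 4 weeks, Adamts1 (1.70, adjusted p = 0.0180) rose with it. In the 4-week livers Stc2 was highest in replicate 1, the liver with the highest Igfbp1, and lowest in replicate 2, the liver with the lowest.

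Other secreted proteins share the IGFBP-like domain without being classed as carriers, among them the matricellular CCN proteins Cyr61 and Ctgf. Of 8 tested, 3 were higher and 0 lower at 2 weeks, 6 and 0 at 4 weeks, and 1 and 2 in MYC livers. Among all genes 27.8%, 33.8% and 18.3% were called. Cyr61 rose with YAP (1.84 ± 0.36, adjusted p = 0.00430, and 1.46 ± 0.34, adjusted p = 0.00816), as did Crim1 (2.34 and 1.80, adjusted p = 0.00520 and 0.0110) and Esm1, an endothelial proteoglycan (3.77 and 3.66, adjusted p = 0.0174 and 0.0144). Ctgf passed at 4 weeks (3.40, adjusted p = 0.0394), where its livers held 414, 17.66 and 70.4 CPM against 14.9 and 16.8 CPM in controls. In MYC livers Cyr61 fell from 28.6 and 18.3 CPM to 2.74, 1.61 and 2.55 CPM (-3.33 ± 0.35, adjusted p = 0.000428), and its MYC effect lay 4.79 below the YAP effect (-4.79 ± 0.50, adjusted p = 0.000804), the same order as for Igfbp7.

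Genes tied to the control of Igfbp1 were mixed. Among 10 genes of fasting and of FOXO1, the factor that insulin switches off and that induces Igfbp1, 1 was higher and 2 lower at 2 weeks, 2 and 1 at 4 weeks, and 1 and 1 in MYC livers. Pdk4, which spares glucose in fasting, rose in all 3 (1.92, 2.20 and 1.40, adjusted p = 0.0132, 0.00433 and 0.0382), whereas G6pc, the last enzyme of glucose release, fell at both YAP times (-3.88 and -2.61, adjusted p = 0.0167 and 0.0310). The 10 genes summed to 2841 to 2994 CPM in YAP controls, 1104 to 1700 CPM at 2 weeks and 1117 to 1323 CPM at 4 weeks. They summed to 3758 to 4014 CPM in MYC controls and 771 to 2625 CPM in MYC livers. Such a sum gives most weight to the most abundant genes. Of 12 stress genes linked to Igfbp1, 2 were higher and 1 lower at 2 weeks, 2 and 2 at 4 weeks, and 1 and 6 in MYC livers. Fgf21, a stress hormone near 0 in YAP controls (0 and 0.106 CPM), rose to between 0.212 and 3.29 CPM in the 5 induced livers (adjusted p = 0.0386 and 0.0241), and fell in MYC livers from 21.2 and 18.9 CPM to at most 0.536 CPM (-6.07, adjusted p = 0.00232). Among 16 insulin and IGF signal transducers, 1 was higher and 2 lower at 2 weeks, 2 and 4 at 4 weeks, and 1 and 3 in MYC livers. The counts of these lists stand beside the 27.8%, 33.8% and 18.3% of all genes called. The kinase Akt2 was lower in each (-1.16, -0.94 and -0.68, adjusted p = 0.00205, 0.00288 and 0.0251), and Grb10, an adaptor that dampens insulin and IGF receptor signals, rose most in MYC livers (4.00 ± 0.52, adjusted p = 0.00139).

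As a description of pattern, the genes nearest to each family member over the 12 libraries were taken by the root mean square difference of centred log2 CPM, among 8515 genes with a mean of at least 10 CPM (8516 for Igfbp6). Igfbp4 had the closest companions, Slc25a10 (0.15), F5 (0.17) and Sar1b (0.19). Igfbp7 was nearest to Dlgap4 (0.27), Cul9 (0.28) and Dsg2 (0.29), and Igfbp3 to Aspa (0.36), Serpina11 (0.38) and Abca3 (0.38). Igfbp5 followed with Ocel1 (0.37), Btg1 (0.39) and P3h1 (0.40). For Igfbp1 the nearest were Fkbp5 (0.57), Sgk1 (0.57) and Ifngr1 (0.58), for Igfbp6 Abhd2 (0.66), Adamts9 (0.66) and Hes1 (0.67), and for Igfbp2 Gstt3 (0.74), Rnase4 (0.83) and Aspdh (0.87). Within the family the nearest pair was Igfbp3 and Igfbp5 (0.72) and the farthest Igfbp1 and Igfbp2 (2.94). The libraries share their group means, so these distances describe the 5 groups as much as the single livers.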

How the data were processed

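The deposited values were raw read counts per gene symbol, 1 table per library, used as given. Per the submitters' processing notes the tools were Trim Galore 0.4.1, HISAT2 2.1.0, featureCounts 1.6.3 and DESeq2 1.20.0 on GRCm38 (mm10). Annotation release, strand setting and the handling of reads with several matches are not given in the sources used here. Per the labels' protocols RNA came from total liver (TRIzol, RNeasy, DNase) and libraries from the Nugen Ovation Mouse RNA-seq System.

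Counts were fitted with edgeR 4.0.16 (R 4.3.3; limma 3.58.1) on all 12 libraries with 1 mean per group: filterByExpr, TMM, robust quasi-likelihood, 7 residual degrees of freedom, biological coefficient of variation 31.5%. Tests were two-sided with Benjamini-Hochberg adjustment over 17964 genes and a threshold of 0.05. The SE is the log2 fold change divided by the root of its F statistic. CPM use TMM library sizes, and CPM per kb the union of GENCODE vM21 exons. The precision is set by 2 or 3 livers per group and, for Igfbp6, by its few counts. The fit was tested on simulated data. No label says which libraries came from separate animals, so p-values measure the spread between these libraries. The 2-week libraries differed in sex pattern (Xist at 1.35 and 1748 CPM) and so came from different animals. Within the other groups the labels do not settle whether the spread is between animals or technical. It exceeded counting error, with a chi-square per degree of freedom from 11.2 for the MYC controls to 113 for 4-week replicates 1 and 2. Its source was not tested.

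The members and gene lists were chosen with earlier results of these data known. All 7 members are named. Of each list, up to 4 tested genes with the smallest p per comparison may be named, and for each member the 3 nearest genes. Alternatives were total counts, DESeq2 size factors, the DESeq2 1.42.0 Wald test, no filter, only the groups compared, a sex pattern term, a replicate block, and each library left out. The labels do not say whether equal replicate numbers mark paired livers. Deviations of same-numbered libraries from their group means correlated between -0.032 and 0.082. In groups of 2 these deviations mirror each other, so the values cannot exclude pairing. RefSeq protein sequences were not used here.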

Additional observations from a re-analysis of the deposited data

Results flagged for a closer look

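The effects of MYC and of 4 weeks of YAP, each against its own controls, differed by the test of the difference for 3 of the 7 genes. In this comparison 7.48% of all tested genes were called. The MYC effect minus the YAP effect was -3.52 on the log2 scale for Igfbp1 (edgeR adjusted p = 0.0471), -3.59 for Igfbp6 (0.0430) and -2.58 for Igfbp7 (0.00227). For Igfbp7 the value came from a rise with YAP and a fall with MYC. For Igfbp1 the YAP effect was 3.28 and the MYC effect, not called, -0.24. For Igfbp6 the YAP effect was 2.31 and the MYC effect, not called, -1.29, with all 3 MYC livers below both controls. As given above, the Igfbp1 and Igfbp6 calls were lost in most refits that left out 1 library. With the sex pattern term none of these genes passed (edgeR adjusted p = 0.422 for Igfbp1, 0.442 for Igfbp6 and 0.106 for Igfbp7).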

How the results depend on the processing

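Of the 7 genes, 4, 5, 2, 0 and 3 were called for 2 weeks, 4 weeks, MYC, 4 against 2 weeks, and the difference of effects. The shares of all tested genes called were 27.8%, 33.8%, 18.3%, 0.0612% and 7.48%. Shares under the other settings are not given here, so a changed count below cannot be read as particular to the family. At 2 weeks the count was 2 without the filter, 2 with the replicate block and 1 with the sex pattern term. At 4 weeks it was 3 with only the groups compared, 1 with the block and 0 with the sex term. For MYC it was 1 with only the groups compared, 0 with the block, 0 with total counts and 1 with the sex term. There the sex term had nothing to adjust, as all MYC livers and their controls had a male pattern. For the difference of effects it was 1 with the block and 0 with the sex term. Without the filter, Igfbp1 (adjusted p = 0.0519) and Igfbp2 (0.0513) lost their call at 2 weeks, Igfbp2 (0.114) at 4 weeks and Igfbp1 (0.132) in the difference of effects. With only the groups compared, Igfbp2 (0.0691) and Igfbp6 (0.0681) lost it at 4 weeks, Igfbp4 (0.0527) for MYC and Igfbp1 (0.0545) in the difference of effects. The block by replicate number fits a pairing that the labels do not give. Leaving out 1 library gave 1 to 3, 2 to 5, 0 to 3, 0 to 0 and 1 to 3 genes, in the order above. All other settings run stayed within 1.5 times the count reported. The cause of these changes was not tested, except that a left-out library leaves fewer samples.

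In the settings run, directions turned only in values that were not called. Under total counts Igfbp1 was 0.16 for MYC, Igfbp3 0.21 at 4 weeks, and the difference of effects -0.17 for Igfbp4 and -0.25 for Igfbp5. With the sex term Igfbp5 was -0.11 at 2 weeks, the difference of effects 0.22 for Igfbp3 and -0.23 for Igfbp4, and 4 against 2 weeks -0.15 for Igfbp1, -0.11 for Igfbp3, -0.005 for Igfbp6 and -0.17 for Igfbp7. With the replicate block Igfbp1 was 0.027 for MYC and Igfbp7 -0.16 for 4 against 2 weeks. With 1 library left out, ranges that crossed 0 were -0.44 to 0.029 for Igfbp1 in MYC livers, -0.11 to 0.28 for Igfbp5 at 2 weeks, -0.13 to 0.48 and -0.24 to 0.65 for the difference of effects of Igfbp4 and Igfbp5, and for 4 against 2 weeks -0.50 to 0.77 (Igfbp1), -0.093 to 0.44 (Igfbp3), -0.10 to 0.42 (Igfbp4), -0.086 to 0.66 (Igfbp5) and -0.15 to 0.21 (Igfbp7). Igfbp6, with at most 57 counts in a library, is the gene that depth limits most.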
